A study of Mus musculus with 12 samples.

Results

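Apom encodes apolipoprotein M, and it was 1 of 736 rows of a panel of metabolic genes measured in 12 mice. The row was taken by its name, after earlier work on these data had shown a low value in knockout mice, so the levels and fold changes of Apom below are descriptions and no test is given for them. The panel was read with nCounter probes, in which each target RNA is tagged with a coloured barcode and the barcodes are counted, with no amplification step. The mice were males of the C57BL6-NJ background used as a model of early MASH (metabolic dysfunction-associated steatohepatitis, a fatty and inflamed liver), and they formed 4 groups of 3. Western-diet knockout mice carried a constitutive SphK2 KO, received Western diet with sugar water and were 217, 221 and 252 days old. Western-diet wild-type mice received the same diet and were 226 to 232 days old. Control-diet knockout mice received control diet with normal water and were aged 250 to 259 days, and wild-type mice on that same diet 231 to 232 days. The growth protocol gives 16 weeks of diet for all mice. The sample labels instead list a different duration for each mouse, rising from 16 weeks by 1 week per sample in listed order. On control diet the knockout mice were all older than the wild-type mice, so age and genotype cannot be told apart within that diet. These control-diet knockout ages, and the 252 days above, also exceed the sum of starting age and feeding time in the growth protocol. A constitutive knockout removes SphK2 in every cell, and the labels give neither the tissue nor whether the mice were littermates.

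Apolipoprotein M is a small lipocalin that is secreted mainly by hepatocytes and, in the kidney, by proximal tubule cells. It keeps its signal peptide, which anchors it in the lipid of high-density lipoprotein (HDL), and its binding pocket holds sphingosine-1-phosphate (S1P). S1P is made from sphingosine by the kinases SphK1 and SphK2, and S1P bound to apolipoprotein M reaches the S1P receptors of the endothelium. No row of the panel was named Sphk1 or Sphk2, so each genotype rests on its label alone.

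The gene lies on chromosome 17 of GRCm38.p6, from 35128997 to 35131801 on the minus strand, over 2805 bases. Because the level of this 1 transcript is what differs below, the stretch before its start is shown, from the RefSeq promoter table of GRCm38.p6. It covers the 250 bases upstream of the annotated start, chr17:35131802-35132051, minus strand, 5′ to 3′. Capitals mark matches to the nuclear receptor half-site GGGTCA, searched on both strands.
Apom upstream: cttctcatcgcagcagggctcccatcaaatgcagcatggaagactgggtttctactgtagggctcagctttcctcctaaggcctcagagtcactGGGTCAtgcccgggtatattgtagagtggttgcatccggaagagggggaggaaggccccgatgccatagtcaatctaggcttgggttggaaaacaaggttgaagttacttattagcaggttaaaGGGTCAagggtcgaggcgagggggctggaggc
The matches lie at -156 to -151 and -32 to -27 from the start and do not overlap. GGGTCA occurs in 3826 of 32851 promoters of the same length (11.6%). Of the 6 other apolipoprotein genes of the panel with a promoter sequence, 1, Apoe, held it. These letters were chosen after the sequence was seen, and a match is no evidence that a factor binds there.

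The libraries held 1138914 (Western-diet wild-type replicate 3) to 1924846 recovered counts. Row names are in doubt after the first 111 rows, which run from A2m to Cat: Apoa2 averaged 89078 ± 13436 (SD, n = 12), whereas the row named Gapdh, an enzyme of glycolysis in every cell, stood at the lowest listed value of 21 in 11 of 12 libraries. Apom is row 57, and rows after Cat are not named here. The labels name no tissue, but 10 of 14 listed hepatocyte genes were among the first 111 rows, and their summed signal was 391668 to 474643 in Western-diet knockout, 423496 to 472370 in Western-diet wild-type, 390064 to 429462 in control-diet knockout and 433116 to 457756 in control-diet wild-type libraries. The 2 leukocyte genes in these rows, of 9 listed, were Btk and Alox5, which summed to 42 to 94.0 in Western-diet knockout, 42 to 60.1 in Western-diet wild-type, 47.6 to 77.9 in control-diet knockout and 42 to 56.4 in control-diet wild-type libraries, where 42 means that both stood at 21. No row from the lists for stellate cells or adipocytes was present, and of 4 listed genes of intestine or kidney epithelium 2 were, Aoc1 at 21 to 50.6 in the 12 libraries and Apoa4, which is given below. The part of cell composition in the values below was not tested, and in RNA from whole samples fewer cells of a type and less RNA per cell cannot be told apart.

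On Western diet, Apom was lower in every knockout mouse than in any wild-type mouse. Its normalized signal was 1899, 2208 and 2069.7 in Western-diet knockout replicates 1 to 3, against 4100.3, 4866 and 5805 in Western-diet wild-type replicates 1 to 3. The knockout values lay close together and the wild-type values spread more widely, and the groups did not overlap. In the whole table, 8.97% of rows had all 3 knockout values under all 3 wild-type values on this diet, and since Apom was chosen by this contrast the share is given only as background. Means were 2059 ± 155 for Western-diet knockout mice, against 4924 ± 854 for Western-diet wild-type mice (SD, n = 3 each). The log2 fold change was -1.25 ± 0.27 (SE), that is 2.37-fold lower in knockout mice. Among the 111 rows from A2m to Cat, 5 had a larger absolute log2 fold change, and the median absolute value was 0.16. The highest value came from the library with the fewest counts, Western-diet wild-type replicate 3, and without it the log2 fold change was -1.12.

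**Figure D1:**
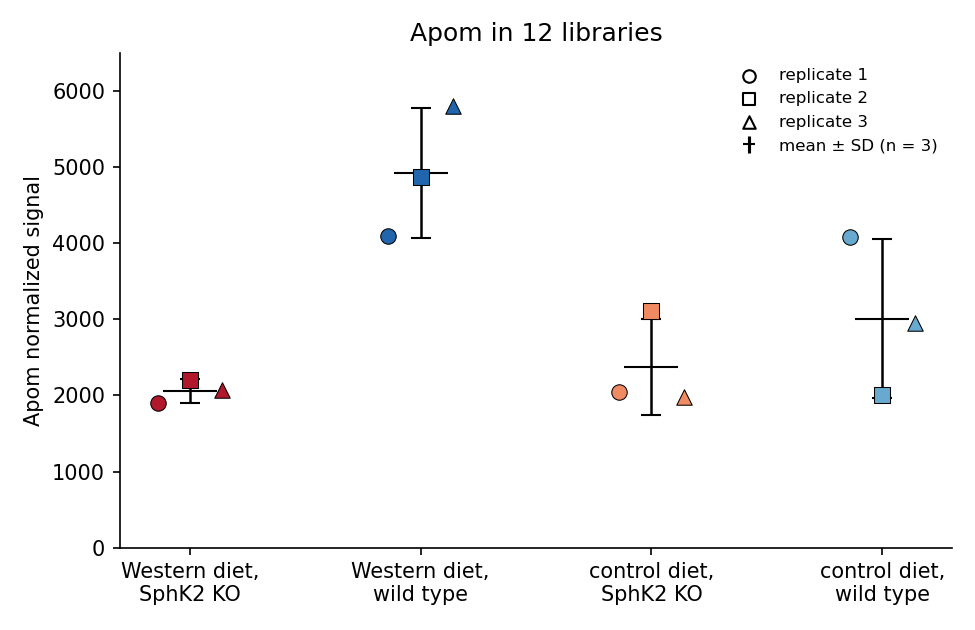
Normalized signal of Apom (vertical axis, linear, from 0) in each of 12 libraries by group, with replicates as symbols and the mean ± SD of 3 mice as bars. The Western-diet knockout mice lie between 1899 and 2208 and the Western-diet wild-type mice between 4100.3 and 5805, while the control-diet groups overlap.

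On control diet, the genotypes overlapped. Apom had 2039, 3108 and 1975 in control-diet knockout replicates 1 to 3, against 4080.2, 2005 and 2947 in control-diet wild-type replicates 1 to 3. In each group replicate 2 lay on the side of the other genotype: knockout replicate 2 was the highest knockout library, and wild-type replicate 2 the lowest wild-type library. The means were 2374 ± 636 in control-diet knockout and 3011 ± 1039 in control-diet wild-type mice (SD, n = 3 each). The log2 fold change of -0.32 ± 0.27 (SE) was close to its error. It was -0.58 without wild-type replicate 2, -0.53 without knockout replicate 2, -0.20 without knockout replicate 3 and -0.066 without wild-type replicate 1. With both replicates 2 removed, a choice made on their values, it was -0.79 ± 0.20. With age as a covariate over all groups it was -0.34 ± 0.40.

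In wild-type mice, Apom was higher on Western than on control diet, by 0.75 ± 0.27 on the log2 scale, or 1.69-fold. The 4924 ± 854 on Western diet stood against 3011 ± 1039 on control diet. The groups were separated by a narrow margin, since the lowest Western-diet library had 4100.3 and the highest control-diet library 4080.2. The share of all rows with every Western-diet value above every control-diet value was 4.35%. Without control-diet wild-type replicate 2 the log2 fold change was 0.49, and without the library of lowest depth, Western-diet wild-type replicate 3, it was 0.63.

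In knockout mice, Apom averaged 2059 ± 155 on Western diet and 2374 ± 636 on control diet, and the groups overlapped. The log2 fold change was -0.18 ± 0.27, and without control-diet knockout replicate 2 it was 0.035. The diet difference in knockout minus that in wild-type mice was -0.93 ± 0.38 (log2, SE), and it was -0.46 ± 0.26 without both control-diet replicates 2. Ordered by mean, Apom was highest in Western-diet wild-type mice, followed by control-diet wild-type, control-diet knockout and Western-diet knockout mice. Of the neighbours in this order, only Western-diet and control-diet wild-type mice did not overlap.

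The recovered counts of Apom ran from 1890 (95% exact Poisson interval 1806 to 1977) in Western-diet knockout replicate 1 to 5099 (4960 to 5241) in Western-diet wild-type replicate 2. Counting error was 1.40% to 2.30% of the value in the 12 libraries. The standard deviation between mice was 7.53% of the mean in Western-diet knockout, 17.3% in Western-diet wild-type, 26.8% in control-diet knockout and 34.5% in control-diet wild-type mice. The spread between mice was thus wider than counting error in each group.

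The panel held 7 other apolipoprotein genes up to Cat, and none of them was as much lower in Western-diet knockout mice as Apom. Apoa1 and Apoa2 encode the main proteins of HDL. Apoa1 had 76135 ± 7089 in Western-diet knockout mice, against 92483 ± 17966 in Western-diet wild-type mice, a log2 fold change of -0.27 ± 0.19 (SE, n = 3 each, as below). Apoa2 had 88353 ± 17048 in the knockout group, against 84003 ± 12692 in the wild-type group, a log2 fold change of 0.065 ± 0.19. Apob, which forms the backbone of very-low-density particles, had 28742 ± 733 in Western-diet knockout mice, against 27396 ± 2479 in Western-diet wild-type mice, a log2 fold change of 0.073 ± 0.077. Apoc3, an inhibitor of triglyceride clearance, had 66287 ± 13281 in the knockout group, against 68274 ± 3906 in the wild-type group, a log2 fold change of -0.059 ± 0.11. For these 4 genes the groups overlapped. The small log2 fold changes of Apoa2, Apob and Apoc3 turn sign under some alternatives.

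The other 3 genes were higher in each Western-diet knockout mouse than in any Western-diet wild-type mouse, the opposite side from Apom. Apoe, the ligand for receptor uptake of remnant particles, averaged 89635 ± 10651 in Western-diet knockout mice, against 62301 ± 4480 in Western-diet wild-type mice, a log2 fold change of 0.52 ± 0.12. Apoc2, the activator of lipoprotein lipase, had 9376, 6333 and 10925 in Western-diet knockout replicates 1 to 3, against 4229, 2690.1 and 3384 in Western-diet wild-type replicates 1 to 3. Its log2 fold change was 1.36 ± 0.47. Apoa4, a protein of chylomicrons and HDL, had 39648, 19838 and 38929 in Western-diet knockout replicates 1 to 3, against 2254, 1564 and 2662 in Western-diet wild-type replicates 1 to 3. Its log2 fold change was 3.89 ± 1.17, with an error pooled over all groups.

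By limma with Benjamini-Hochberg adjustment over 736 rows, 0 of the 7 genes passed on Western diet (adjusted p = 0.0861 for Apoe, 0.146 for Apoa4 and 0.161 for Apoc2, up to 0.923), and 3 of 7 had an unadjusted p under 0.05. Over all rows, 0.136% passed (1 of 736), 20.9% had an unadjusted p under 0.05, and 14.5% of rows had all knockout values above all wild-type values. The median log2 fold change of the 7 genes was 0.073, beside 0.030 for all rows. In the other 3 simple contrasts, 0 of the 7 passed (adjusted p = 0.676 to 1), as did 0% of all rows. There the number of the 7 with an unadjusted p under 0.05 was 0 for genotype on control diet, 1 (Apoe) for diet in wild-type mice and 0 for diet in knockout mice, beside 4.76%, 6.66% and 2.31% of all rows. For the difference between the diet effects, 0 of 7 and 0% of all rows passed, and 1 of 7, Apoe, had an unadjusted p under 0.05, as had 5.98% of all rows.

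**Figure D2:**
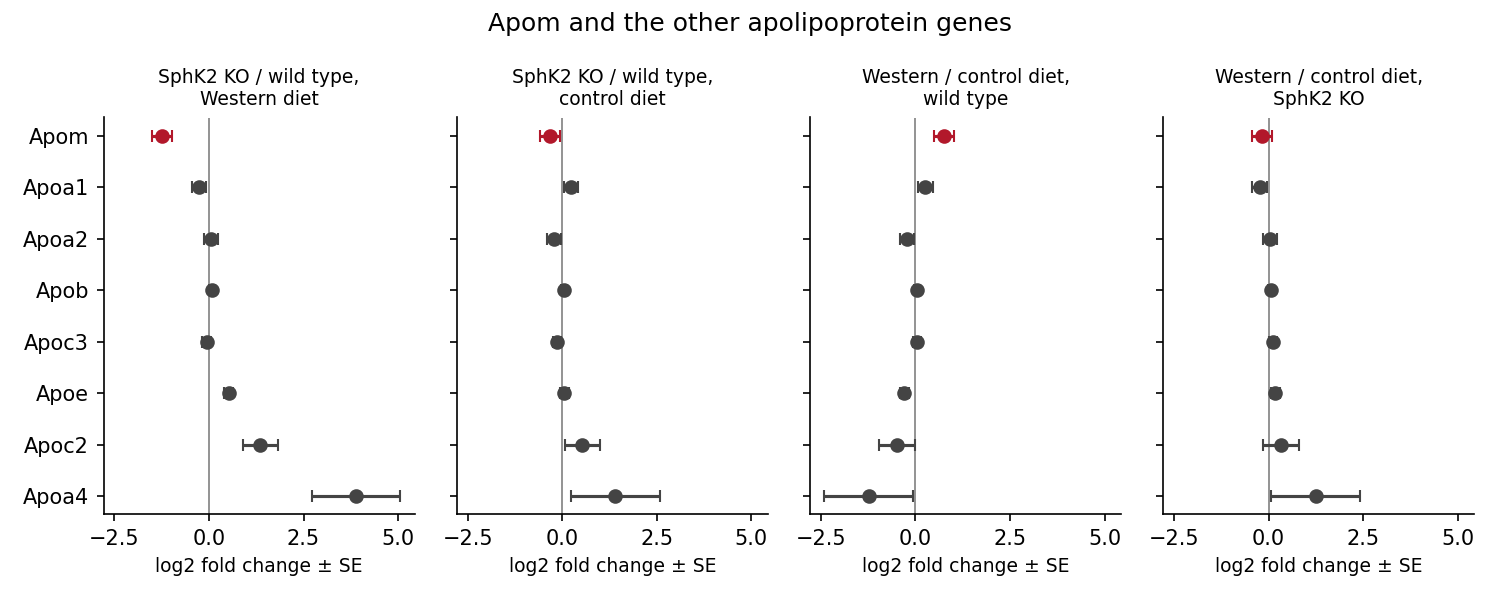
Log2 fold changes (horizontal axes) of Apom and 7 other apolipoprotein genes in 4 comparisons, with limma's SE as bars (n = 3 mice per group). In Western-diet knockout over Western-diet wild-type mice, Apom lies at -1.25, while Apoe, Apoc2 and Apoa4 lie at 0.52, 1.36 and 3.89.

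On Western against control diet in wild-type mice, Apoe had 62301 ± 4480 on Western diet and 76604 ± 11293 on control diet, a log2 fold change of -0.29 ± 0.12 (adjusted p = 0.712 by limma). It was lower in each Western-diet than in any control-diet wild-type mouse, as were 6.66% of all rows. Apoa4 and Apoc2 had log2 fold changes of -1.24 ± 1.17 and -0.49 ± 0.47, with overlapping groups (adjusted p = 0.970 each). Without control-diet wild-type replicate 2 these log2 fold changes were -0.020 for Apoa4, -0.13 for Apoc2 and -0.17 for Apoe, so those of Apoa4 and Apoc2 rest largely on that library. This comparison and that of genotype on Western diet share the Western-diet wild-type libraries. In knockout mice, Apoa1 was lower in each Western-diet than in any control-diet mouse (-0.24 ± 0.19, adjusted p = 1), as were 3.67% of all rows. On control diet, Apoc3 was lower in each knockout mouse, with 60507 ± 131, than in any wild-type mouse, with 66484 ± 1035 (-0.14 ± 0.11 on the log2 scale, adjusted p = 0.681 by limma), as were 2.85% of all rows, and with age as a covariate the fold change turned sign.

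A ratio of 2 genes in the same library does not depend on how the library was scaled. Apom was therefore set against the mean log2 signal of the 7 other genes, as a value centred on its mean over 12 libraries. It was -1.06, -0.69 and -0.86 in Western-diet knockout replicates 1 to 3, against 0.92, 1.21 and 1.38 in Western-diet wild-type replicates 1 to 3. The groups stood apart, with a difference of -2.04 ± 0.17 (log2, SE of these 2 groups). Part of this size comes from Apoa4 and Apoc2, and without both it was -1.31 ± 0.15. Against each gene alone, the log2 ratio of Apom was lower in Western-diet knockout mice for 7 of 7 genes with no overlap, by -0.98 (against Apoa1) to -5.14 (against Apoa4). The ratio of Apom to 65 of 73 other rows up to Cat above 21 in all libraries (89.0%) also showed no overlap. This count takes ratios that were lower or higher in knockout mice. Separation of the groups in a ratio with Apom was thus not particular to the apolipoprotein genes.

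In the other comparisons the groups overlapped in this ratio or stood apart only narrowly. In control-diet knockout replicates 1 to 3 it was -0.92, 0.44 and -0.87, against 0.90, -0.88 and 0.42 in control-diet wild-type replicates 1 to 3, a difference of -0.59 ± 0.69. Here 0 of 7 single ratios stood apart, beside 0% for the 73 other rows. The difference ran from -0.22 without wild-type replicate 1, over -0.36 without knockout replicate 1 and -0.38 without knockout replicate 3, to -1.04 without knockout replicate 2 and -1.10 without wild-type replicate 2. With both replicates 2 removed for their values it was -1.55. Western-diet over control-diet wild-type mice differed by 1.03 ± 0.55. These groups stood apart narrowly, with 0.918 in the lowest Western-diet and 0.8965 in the highest control-diet library. Of the single ratios, 3 of 7 stood apart, those to Apoa2, Apoc3 and Apoe, beside 47.9% for the 73 other rows. The difference was 0.52 without control-diet wild-type replicate 2. Western-diet over control-diet knockout mice differed by -0.42 ± 0.46, with 0 of 7 apart, beside 6.85% for the 73 other rows. Without control-diet knockout replicate 2 they differed by 0.021.

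**Figure D3:**
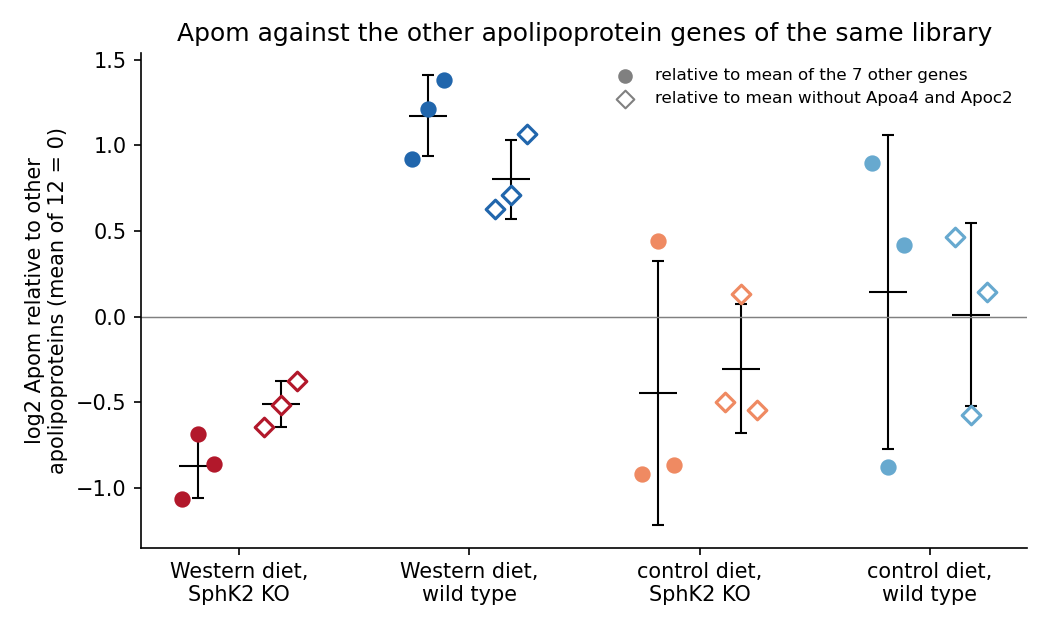
Log2 signal of Apom minus the mean log2 signal of the other apolipoprotein genes of the same library (vertical axis, mean of 12 libraries set to 0), with filled circles for all 7 genes, open diamonds for the 5 without Apoa4 and Apoc2, and bars for the mean ± SD of 3 mice. Western-diet knockout libraries lie at -1.06 to -0.69 and Western-diet wild-type libraries at 0.92 to 1.38 (circles), and replicate 2 of each control-diet group lies apart from the other replicates.

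Across single libraries, Apom ran opposite to Apoa4 and Apoc2, also where the libraries departed from their group. Control-diet wild-type replicate 2, with Apom at 2005, had 27043 for Apoa4 and 7899.6 for Apoc2, against 2071 and 2208 for Apoa4 and 2875 and 4742 for Apoc2 in replicates 1 and 3. Control-diet knockout replicate 2, with Apom at 3108, had 2685 for Apoa4 and 3653 for Apoc2, against 33899 and 25298 for Apoa4 and 10320.2 and 8687 for Apoc2 in replicates 1 and 3. The 6 libraries lowest in Apom were the 3 of Western-diet knockout mice, control-diet knockout replicates 1 and 3 and control-diet wild-type replicate 2. The same 6 libraries were the 6 highest for Apoa4, Apoc2, Apoe, Acaca and Cacng7, and the 6 lowest for Acat2, Acmsd, Adh4, Agxt, Amdhd1 and Asl. These 11 genes, named after their values were seen, were 13.8% of the 80 rows up to Cat above 21 in all libraries, and 56 of 537 such rows of the whole table (10.4%) fell into these same 6 and 6. This division of the libraries was thus shared by many rows besides Apom.

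**Figure D4:**
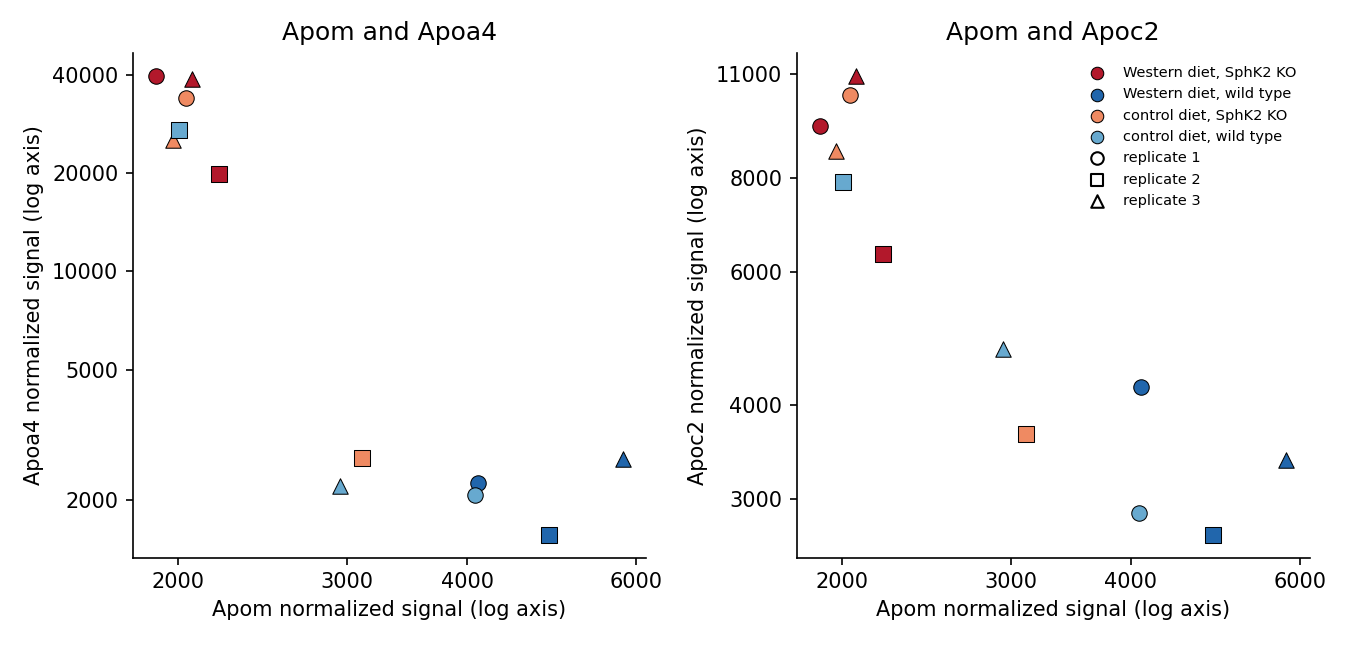
Signal of Apoa4 (left, vertical log axis) and Apoc2 (right, vertical log axis) against that of Apom (horizontal log axes) in 12 libraries, coloured by group with replicates as symbols. The 6 libraries with Apom between 1899 and 2208 have 19838 to 39648 for Apoa4 and 6333 to 10925 for Apoc2, and control-diet replicates 2 lie with libraries of the other genotype.

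Likeness to Apom was measured as Pearson's r of log2 signals over the 12 libraries, for the 80 rows up to Cat above 21 in all libraries. Rows were picked by this r, so it is a description, and the libraries share 1 assay, which can move many rows together. The median absolute r was 0.44, and 12 rows lay above 0.7 and 12 below -0.7. The 4 most alike were Acmsd, an enzyme of tryptophan breakdown that turns the kynurenine pathway away from NAD (r = 0.92, Spearman's rho = 0.87), Bhmt2, a homocysteine methyltransferase (0.88 and 0.87), Atf4, which drives the transcriptional answer to amino acid and other stress (0.88 and 0.78), and Ass1, an enzyme of the urea cycle (0.86 and 0.83). The 4 most opposed were Atox1, a copper chaperone (r = -0.91, rho = -0.91), Apoc2 (-0.91 and -0.84), Cacng7, a calcium channel subunit gene (-0.91 and -0.84), and Apoa4 (-0.90 and -0.82).

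Because the libraries fell into sets, these r were also taken on deviations from the 4 group means. They were then 0.73 for Acmsd, 0.78 for Bhmt2, 0.61 for Atf4, 0.72 for Ass1, -0.73 for Atox1, -0.88 for Apoc2, -0.70 for Cacng7 and -0.84 for Apoa4. Without the 2 libraries farthest from the median of Apom, Western-diet wild-type replicates 2 and 3, all 8 r kept their sign, at 0.78 to 0.87 and -0.86 to -0.94. Within the 6 libraries lowest in Apom and the 6 highest, r was -0.61 and -0.19 for Apoa4 and -0.50 and -0.59 for Apoc2. It was 0.39 and 0.65 for Acmsd, 0.39 and 0.82 for Bhmt2, -0.29 and 0.75 for Atf4, 0.75 and 0.42 for Ass1, -0.52 and -0.61 for Cacng7, and -0.78 and -0.96 for Atox1. The sign thus turned for Atf4 among the 6 lowest libraries, and r was weaker within both sets than over all libraries for every one of these rows except Atox1. With each library centred on its median, r of Atox1 with Apom was -0.24.

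Of 21 genes listed for lipid transport and related metabolism, the rows up to Cat held only Acat1 and Acat2, the mitochondrial and the cytosolic acetyl-CoA acetyltransferase. These are thiolases that act before sterol and ketone synthesis and do not transport lipid, so the panel rows used here do not show how lipid transport genes other than apolipoproteins behaved. Acat2 averaged 589.7 ± 29.6 in Western-diet knockout mice, against 1228 ± 273 in Western-diet wild-type mice (-1.03 ± 0.44 on the log2 scale, adjusted p = 0.226 by limma), without overlap, as 8.97% of all rows were lower. Acat1 had 9100.2 ± 1133 in knockout mice and 6037 ± 1423 in wild-type mice on this diet (0.61 ± 0.17, adjusted p = 0.113), without overlap, as 14.5% of all rows were higher.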

How the data were processed

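Total RNA of 12 male mice was measured with nCounter probes against metabolic genes, as the labels state. The deposited table lists a normalized signal for 736 rows. How the authors normalized this signal is not given in the sources used here. In each library, 100% of the values between 21 and 3000 were multiples of 1 step, within 0.1 of a count, so the deposited signal behaves as counts times 1 factor, with a lowest listed value of 21. Counts under this floor are unknown, and no count model was used.

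Log2(value + 1) was fitted with limma 3.58.1 in R 4.3.3, with a mean for each of 4 groups and 8 residual degrees of freedom from 12 libraries. Benjamini-Hochberg adjustment ran over all 736 rows within each of 5 contrasts, at a threshold of 0.05. Apom and the gene lists were chosen with earlier results of these data known. No p-value is therefore given for Apom, and its fold changes are descriptions with limma's moderated standard error (SE). Rows named were Apom, the other apolipoprotein rows up to Cat, the 2 measured rows of a list for lipid transport, and the 4 rows up to Cat most positively and the 4 most negatively correlated with Apom. Acaca, Adh4, Agxt, Amdhd1 and Asl were named after their values were seen, because they divided the libraries as Apom did. Btk, Alox5 and Aoc1 came from cell type lists, and A2m, Cat and Gapdh were named for the order of rows. Alternatives covered scaling, pseudocount, low rows, variance model, age, array weights and each library left out. Replicate numbers follow sample order and pair nothing.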

Additional observations from a re-analysis of the deposited data

How the results depend on the processing

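In Western-diet knockout over wild-type mice Apom had -1.41 to -1.19 under the 6 alternatives of scaling, pseudocount, age and weights. Without each library it had -1.37 to -1.12. Since these groups did not overlap, leaving out 1 library could not turn the sign, and leaving out a control-diet library left the value unchanged. No paired analysis was possible because the labels give no replicate numbers that link mice of different groups. Median centring moved the median log2 fold change of all rows from 0.030 to -0.13 in that comparison. With array weights the difference between diet effects on Apom was -0.56, genotype on control diet -0.63 and diet in wild type 0.48. Without both control-diet replicates 2, chosen after seeing the data, it was -0.46, genotype on control diet was -0.79 for Apom and -1.55 for Apom relative to the other apolipoproteins. That relative value on Western diet, -2.04, was -1.23 against the median of the others, -1.53 without Apoa4 and -1.31 without Apoa4 and Apoc2. For genotype on Western diet the count of rows called, 1, was 0 with median centring, with age as covariate and with only rows above 21 in at least 3 libraries, 37 without both control-diet replicates 2, and 0 to 21 without each library. On control diet it was 0 to 3 without each library and 26 without both, for diet in wild type 0 to 1, for diet in knockout 2 with age as covariate, and for the difference between diet effects 0 to 1 without each library. Calls among the 7 other apolipoproteins, summed over the contrasts, were 0 to 1 without each library and 4 without both replicates 2. The 1 call was Apoe on Western diet, when control-diet wild-type replicate 2 was omitted, beside 21 calls among all rows. Without both replicates 2 the calls on Western diet were Apoa4, Apoc2 and Apoe, beside 37 among all rows. On control diet the call was Apoa4 again, beside 26 among all rows. On Western diet Apoa2 turned to -0.098 with median centring and -0.023 with total count scaling, and Apob to -0.090 and -0.015. Apoc3 on control diet turned to 0.073 with age as covariate. Without each library, Apoa2 ranged over -0.063 to 0.22 and Apoc3 over -0.22 to 0.047. Of the 8 rows most like or opposed to Apom, 5 were shared when Spearman's rho or deviations from group means chose them. The cause of these changes was not tested. With 3 mice per group, the spread between mice sets the error, and depth is lowest in Western-diet wild-type replicate 3.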
